A study of Homo sapiens with 4 samples.

Results

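The expression of 10 genes of the NRF2 antioxidant response and of the defence against ferroptosis was followed across the 4 RNA-seq libraries of a study of slow-cycling MDA-MB-231 cells, an established human triple-negative breast cancer line. Their rows were found by gene name: NFE2L2, KEAP1, HMOX1, NQO1, GCLC, GCLM, TXNRD1, SRXN1, GPX4 and FTH1. All 10 of 10 names have a single row among the 58735 genes of the count table, and all 10 are among the 14585 genes with a mean CPM of at least 1 (reads scaled to library size).

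The cells of every group carried a TetOn-H2BeGFP reporter, a histone-eGFP fusion that doxycycline switches on, and were grown in DMEM with serum. Doxycycline at 5 μg/ml was given for 3 days, Claret and Violet dyes were loaded, and the labels were left to dilute during a chase of 12 days. The Claret, eGFP and Violet libraries come from the 1% of cells retaining most of the label they are named for, here called slow-cycling, and the Bulk library from cells sorted with no fluorescence gate. Each group is 1 library of this 1 line, so the spread between cultures is unknown, every test below compares reads of 2 libraries rather than 2 conditions, and no difference has a replicate check. Because the samples are bulk RNA, fewer cells of a kind and less RNA per cell cannot be told apart.

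The group labels disagree with each other. The titles, which also name the table columns, were used, but the treatment field calls the library titled Bulk Claret, that titled Claret eGFP, that titled H2B-eGFP Violet, and that titled Violet un-gated. Under that field the calls below would change, and those values stand in the closing section. The libraries held 16033922 (Bulk), 16976909 (Claret), 15868881 (eGFP) and 15508179 (Violet) counted reads, and a floor of 3 reads equals 0.177 to 0.193 CPM. Of markers expected high in the line, vimentin (VIM) stood at 156 to 211 FPKM (a level scaled for gene length and depth). AXL stood at 119 to 148 FPKM, CD44 at 33.0 to 39.8 and SPARC only at 6.87 to 8.21. The receptor genes ESR1 and PGR had 3 to 7 and 0 reads. ERBB2, the other receptor gene of the triple-negative definition, was read at 8.54 to 9.06 FPKM, above SPARC. CDH1 and EPCAM, epithelial genes expected low, had 0 to 3 and 28 to 61 reads. Of 4 markers of other cell types, PTPRC (leukocytes) and DCN (fibroblasts) had 0 to 2 reads, while COL1A1 (fibroblasts) had 284 to 363 and PECAM1 (endothelium) 54 to 87. The part of the last 2 in the results below was not tested. The proliferation genes MKI67 and TOP2A were lower than in Bulk by log2 ratios of -2.87 and -2.17 in Claret, -3.31 and -2.53 in eGFP, and -2.89 and -2.09 in Violet; the part that cycling itself plays in the results below was not tested.

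NRF2, the protein of NFE2L2, is a transcription factor that is made continuously and, in unstressed cells, is bound by KEAP1 and passed to a CUL3 ubiquitin ligase for degradation. Oxidants and electrophiles modify cysteines of KEAP1, NRF2 then escapes degradation, enters the nucleus, pairs with a small MAF protein and binds antioxidant response elements beside genes for glutathione synthesis, thioredoxin recycling, quinone and heme breakdown and iron storage. Ferroptosis is an iron-dependent death by lipid peroxidation, and GPX4, a selenoenzyme, guards against it by reducing lipid hydroperoxides with glutathione. Since KEAP1 acts on the NRF2 protein, RNA levels do not measure the activity of NRF2.

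Antioxidant response elements are commonly written as TGACNNNGC, and the promoters that hold these letters are shown here because they belong to members whose RNA differed in opposite directions. The RefSeq promoter table (GRCh38.p14, 250 bases before to 50 bases after the start) matched 8 of 10 members with 13 promoters, and HMOX1 and FTH1 were not matched. The letters, searched on both strands, occurred in 4 of 13 member promoters, belonging to GCLM, TXNRD1 and KEAP1, against 13.3% of all 35116 promoters. KEAP1 has another promoter in that set, chr19:10503307-10503606, which held 0 matches and is not shown. Capitals mark each match in the following windows, read along the gene's strand.
GCLM, chr1:93909381-93909680, minus strand: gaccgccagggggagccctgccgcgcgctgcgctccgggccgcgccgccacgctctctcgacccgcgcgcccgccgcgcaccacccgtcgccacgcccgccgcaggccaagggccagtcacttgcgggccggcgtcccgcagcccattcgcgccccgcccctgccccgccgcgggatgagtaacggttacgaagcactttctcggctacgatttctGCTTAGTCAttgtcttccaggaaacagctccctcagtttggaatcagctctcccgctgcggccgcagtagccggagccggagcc
TXNRD1, first start, chr12:104215529-104215828, plus strand: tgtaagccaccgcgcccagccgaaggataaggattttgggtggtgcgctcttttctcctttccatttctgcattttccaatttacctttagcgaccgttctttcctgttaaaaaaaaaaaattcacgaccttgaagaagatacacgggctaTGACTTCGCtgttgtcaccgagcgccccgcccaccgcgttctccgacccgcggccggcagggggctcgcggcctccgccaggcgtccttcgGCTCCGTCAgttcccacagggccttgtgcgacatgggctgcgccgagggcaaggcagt
TXNRD1, other start, chr12:104286782-104287081, plus strand: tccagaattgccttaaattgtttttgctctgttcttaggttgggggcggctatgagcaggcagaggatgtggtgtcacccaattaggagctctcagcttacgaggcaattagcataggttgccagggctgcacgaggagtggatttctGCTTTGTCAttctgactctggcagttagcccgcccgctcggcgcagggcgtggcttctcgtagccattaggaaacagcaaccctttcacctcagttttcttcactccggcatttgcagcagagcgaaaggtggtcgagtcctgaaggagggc
KEAP1, chr19:10502722-10503021, minus strand: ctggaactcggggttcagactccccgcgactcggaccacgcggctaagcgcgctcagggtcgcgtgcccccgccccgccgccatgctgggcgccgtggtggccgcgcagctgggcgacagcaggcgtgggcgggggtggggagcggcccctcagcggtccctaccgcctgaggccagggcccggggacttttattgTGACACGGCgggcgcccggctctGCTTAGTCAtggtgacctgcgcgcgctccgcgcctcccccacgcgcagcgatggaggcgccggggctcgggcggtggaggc
GCLM, whose product is the modifier subunit of glutathione synthesis, and KEAP1, the NRF2 inhibitor, hold the same 9 letters TGACTAAGC, both on the strand opposite the gene. In GCLM they lie 34 to 26 bases before the start, and in KEAP1 31 to 23 bases before. KEAP1 has another match, TGACACGGC, 54 to 46 bases before that start. The first TXNRD1 window holds TGACTTCGC 99 to 91 bases before the start and TGACGGAGC on the opposite strand, 8 to 0 bases before it. The other TXNRD1 window holds TGACAAAGC 102 to 94 bases before its start. The AP-1 letters TGACTCA, which share their first 4 letters with the element, were found in 0 of 13 member promoters and in 4.95% of all. A match is a description of letters, and elements farther from a start lie outside these windows.

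KEAP1 was the member that differed most from Bulk, and it was lower. KEAP1 (ENSG00000079999, GRCh38 chr19:10486120-10503741, minus strand) had 1830 reads in Bulk against 966, 872 and 874 in Claret, eGFP and Violet, or 31.3, 15.1, 14.5 and 14.5 FPKM. Bulk was the high library, and the 3 slow-cycling libraries lay close together. The log2 ratios to Bulk were -1.03 (Claret; 95% exact interval -1.14 to -0.92), -1.08 (eGFP; -1.20 to -0.96) and -1.06 (Violet; -1.18 to -0.95). KEAP1 thus fell past 2-fold in each, by an exact binomial test on reads with Benjamini-Hochberg adjustment over all 14585 genes (adjusted p under 0.05 and at least 2-fold). It was the 1 member of 10 called lower, and 0 of 10 were called higher, beside 6.72%, 7.64% and 6.91% of all genes called lower and 11.2%, 11.9% and 11.6% called higher. The ratio sits near the threshold: with only genes of at least 10 CPM kept it was -0.96, -1.01 and -0.99, past 2-fold in eGFP alone. With an assumed coefficient of variation of 0.2 between cultures, edgeR's exact test gave adjusted p = 0.102, 0.0717 and 0.0825 for the same ratios.

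NFE2L2, which encodes NRF2 itself, moved in the opposite direction. NFE2L2 (ENSG00000116044, GRCh38 chr2:177227595-177392697, minus strand) had 1061 reads in Bulk against 1879, 1673 and 1581 in Claret, eGFP and Violet, or 11.4, 18.5, 17.5 and 16.5 FPKM. All 3 slow-cycling libraries were above Bulk, Claret the most and Violet the least. The log2 ratios were 0.72 (0.61 to 0.83), 0.64 (0.53 to 0.76) and 0.58 (0.46 to 0.69), that is 1.64-, 1.56- and 1.49-fold. NFE2L2 passed a second, lower threshold of 1.5-fold in Claret and eGFP and missed it in Violet. Its gene overlaps AGPS on the opposite strand, with 1776, 1065, 906 and 1018 reads. AGPS read lower than in Bulk in each, and whether counting used strand is not given in the sources used here. On the same strand lies AC019080.1, with 43 reads in Bulk against 101, 89 and 101 in Claret, eGFP and Violet. NFE2L2 shares 18.2% of its 31-base words with other genes, most with AC019080.1, so its counts are uncertain to that extent.

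The order of the 2 levels per length turned over. NFE2L2 stood at 0.365 of the KEAP1 level in FPKM in Bulk (0.338 to 0.394), and 1.22 (1.13 to 1.32), 1.21 (1.11 to 1.31) and 1.14 (1.05 to 1.24) in Claret, eGFP and Violet. By the deposited gene lengths, KEAP1 was the more abundant RNA in Bulk, and NFE2L2 was in each slow-cycling library, beyond counting error. These 4 values compare RNA and say nothing of the proteins.

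**Figure D1:**
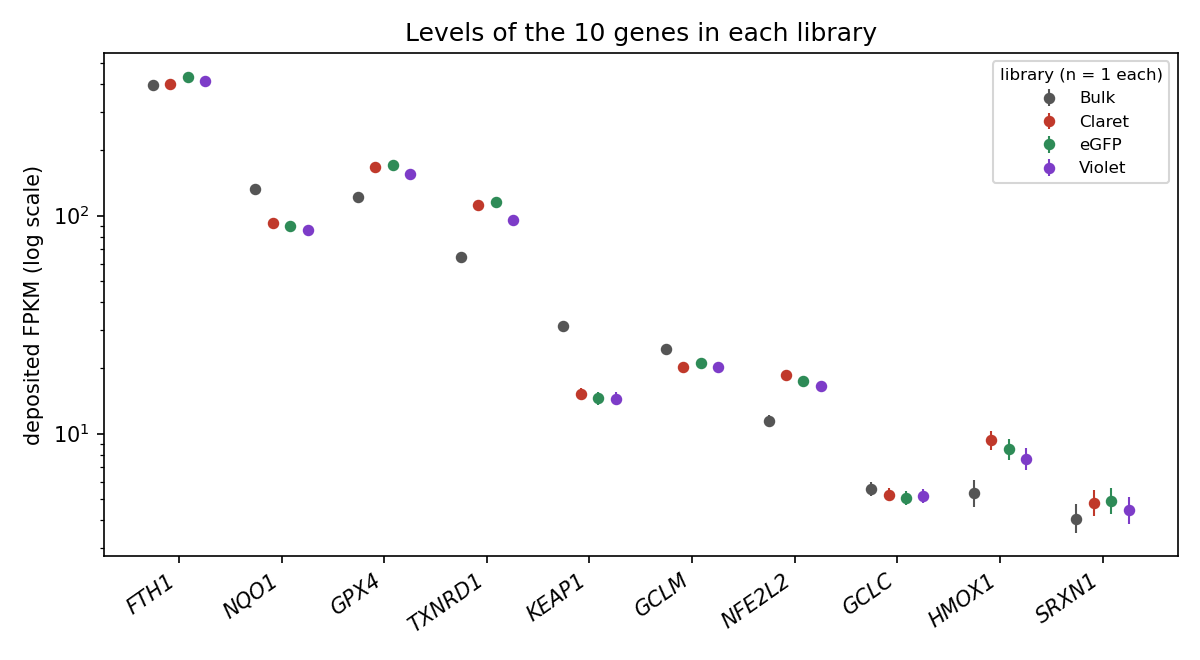
Level of each of the 10 genes in each library, in FPKM on a log axis, 1 point per library; bars are 95% counting intervals. KEAP1 drops from 31.3 in Bulk to somewhat below the NFE2L2 level in the 3 slow-cycling libraries, while FTH1 stays highest and SRXN1 lowest.

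In levels per length the 10 genes ranged from SRXN1 at 4.08 to 4.92 FPKM to FTH1 at 399 to 430 FPKM, and the place of SRXN1 is uncertain because most of its sequence is shared with an overlapping gene. In Bulk the order was FTH1, NQO1, GPX4, TXNRD1, KEAP1, GCLM, NFE2L2, GCLC, HMOX1 and SRXN1, where GCLC and HMOX1, and HMOX1 and SRXN1, did not differ beyond their counting intervals. In each slow-cycling library it was FTH1, GPX4, TXNRD1, NQO1, GCLM, NFE2L2, KEAP1, HMOX1, GCLC and SRXN1. There GCLC and SRXN1 overlapped in all 3 libraries, and GCLM and NFE2L2 in Claret. NQO1 thus stood behind FTH1 in Bulk and behind GPX4 and TXNRD1 as well in the others. These orders rest on the deposited length of each gene, which the intervals do not cover, and NQO1 led GPX4 in Bulk by only 1.09-fold. Together the 10 genes took 0.224% of the Bulk reads, against 0.256%, 0.265% and 0.250% in Claret, eGFP and Violet.

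In the thioredoxin arm TXNRD1, the cytosolic selenoenzyme that keeps thioredoxin reduced, was higher than in Bulk. TXNRD1 (ENSG00000198431, GRCh38 chr12:104215779-104350305, plus strand) had 6767 reads in Bulk against 12712, 12334 and 10331 in Claret, eGFP and Violet, or 64.9, 112, 115 and 95.9 FPKM. Every slow-cycling library was above Bulk, and Violet was the lowest of the 3. The log2 ratios of 0.80 (0.76 to 0.84), 0.85 (0.81 to 0.90) and 0.61 (0.57 to 0.66) correspond to 1.74-, 1.81- and 1.53-fold, so TXNRD1 was the 1 member past 1.5-fold upward in all 3. A ribosomal pseudogene inside TXNRD1, RPL18AP3, has 1232, 2003, 1977 and 1720 reads of its own, and its reads may be shared with the gene. SRXN1 (ENSG00000271303, GRCh38 chr20:646615-653370, minus strand), sulfiredoxin, which repairs over-oxidised peroxiredoxins, had only 171, 220, 212 and 193 reads. Its log2 ratios of 0.25 (-0.04 to 0.55), 0.29 (0.00 to 0.60) and 0.17 (-0.13 to 0.48) did not pass (exact binomial test, adjusted p = 0.115, 0.0649 and 0.302). SRXN1 shares 84.9% of its 31-base words with other genes, mostly AL121758.1, which overlaps it on the same strand and has 0 reads in every library. Reads common to both may be uncounted, so its counts and level are uncertain.

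NQO1, the quinone reductase that serves as the usual readout of NRF2 activity, went the other way from TXNRD1. NQO1 (ENSG00000181019, GRCh38 chr16:69706996-69726951, minus strand) had 6714 reads in Bulk against 5091, 4638 and 4502 in Claret, eGFP and Violet, or 133, 92.2, 89.2 and 86.2 FPKM. The log2 ratios of -0.51 (-0.56 to -0.45), -0.55 (-0.60 to -0.49) and -0.58 (-0.63 to -0.52) passed the exact test with no fold threshold but reached neither 1.5- nor 2-fold. The ratio of TXNRD1 to NQO1 levels per length was 0.489 (0.473 to 0.506) in Bulk and 1.21, 1.29 and 1.11 in the slow-cycling libraries. So these 2 genes, commonly listed together as NRF2 targets, did not move together. NQO1 shares 18.4% of its 31-base words with other genes, and how shared reads were counted is not given in the sources used here.

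In heme and iron handling, HMOX1 was higher and FTH1 hardly differed. HMOX1 (ENSG00000100292, GRCh38 chr22:35380361-35394214, plus strand), heme oxygenase 1, which opens the heme ring and frees its iron, had 199 reads in Bulk against 380, 325 and 296 in Claret, eGFP and Violet, or 5.32, 9.31, 8.46 and 7.67 FPKM. Its log2 ratios were 0.82 (0.57 to 1.08), 0.69 (0.44 to 0.96) and 0.57 (0.31 to 0.84). HMOX1 passed 1.5-fold in Claret and eGFP, at 1.76- and 1.61-fold, and missed it in Violet at 1.48-fold. FTH1 (ENSG00000167996, GRCh38 chr11:61959718-61967660, minus strand), the ferritin heavy chain that oxidises and stores iron, had 12585, 13867, 13961 and 13466 reads. Its log2 ratios were 0.03 (-0.00 to 0.07), 0.14 (0.10 to 0.17) and 0.10 (0.06 to 0.13). FTH1 shares 63.0% of its 31-base words with other genes, most with BEST1 on the opposite strand, and how shared reads were counted is not given in the sources used here, so its counts are uncertain.

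The RNAs of the enzyme that takes the first step of glutathione synthesis were nearly level. GCLC (ENSG00000001084, GRCh38 chr6:53497341-53616970, minus strand), the catalytic subunit of glutamate-cysteine ligase, had 750, 771, 700 and 718 reads, with log2 ratios of -0.07 (-0.22 to 0.08), -0.11 (-0.26 to 0.04) and -0.06 (-0.21 to 0.09). None passed the exact binomial test (adjusted p = 0.429, 0.181 and 0.478), and the lowest bound of the 3 intervals was -0.26. GCLM (ENSG00000023909, GRCh38 chr1:93885205-93909456, minus strand), its modifier subunit, had 2063, 1854, 1834 and 1755 reads. Its log2 ratios of -0.26 (-0.35 to -0.17), -0.18 (-0.27 to -0.09) and -0.23 (-0.32 to -0.14) passed the test but were small. With a correction for the GC content of genes the GCLM ratios were smaller still, at -0.18, -0.09 and -0.19. The GCLC level was 0.228 of the GCLM level in Bulk and 0.261, 0.239 and 0.256 of it in Claret, eGFP and Violet.

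GPX4, the lipid hydroperoxide reductase, was modestly higher. GPX4 (ENSG00000167468, GRCh38 chr19:1103926-1106791, plus strand) had 3832 reads in Bulk against 5732, 5503 and 5029 in Claret, eGFP and Violet, or 122, 167, 171 and 155 FPKM. The log2 ratios were 0.47 (0.41 to 0.53), 0.51 (0.45 to 0.57) and 0.39 (0.33 to 0.45), all past the exact test and below 1.5-fold. After a correction for the GC content of genes they were 0.31, 0.34 and 0.24. None of its 31-base words occurs in another gene. With FTH1 nearly level, the FTH1 to GPX4 ratio of levels per length was 3.27 in Bulk and 2.41, 2.52 and 2.66 in the others.

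**Figure D2:**
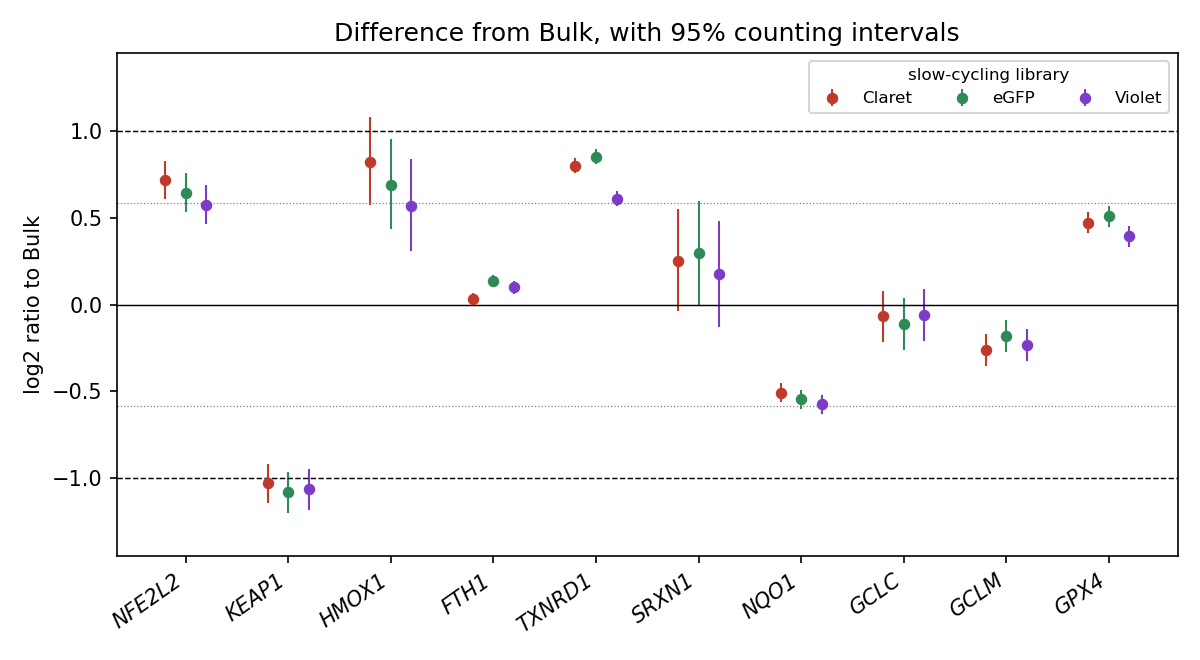
Log2 ratio of each slow-cycling library to Bulk for the 10 genes, with 95% counting intervals; dotted lines mark 1.5-fold and dashed lines 2-fold. KEAP1 alone reaches 2-fold (-1.03 to -1.08), TXNRD1 lies past 1.5-fold in all 3 libraries, and FTH1 and GCLC lie nearest to 0.

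Counted over the 10 genes, 3 passed 1.5-fold upward in Claret and in eGFP (NFE2L2, HMOX1 and TXNRD1) and 1 in Violet (TXNRD1), and 1 (KEAP1) passed it downward in each. Among all genes the share called higher at 1.5-fold was 19.8%, 20.5% and 20.8%, and lower 16.7%, 17.9% and 16.6%. With no fold threshold Claret had 4 above and 3 below Bulk, and eGFP and Violet each had 5 above and 3 below, so 7 or 8 of 10 differed beside 68.8%, 69.9% and 69.5% of all genes. The last of these shares are near the background, and 1 gene of 10 is a step of 10%. The member median log2 ratio was 0.14, 0.22 and 0.14, against -0.01, -0.01 and 0.01 over all genes. The genes differed from one another more than the libraries did: all 10 had 1 sign in the 3 comparisons, which share the Bulk library, as did 85.4% of all genes.

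**Figure D3:**
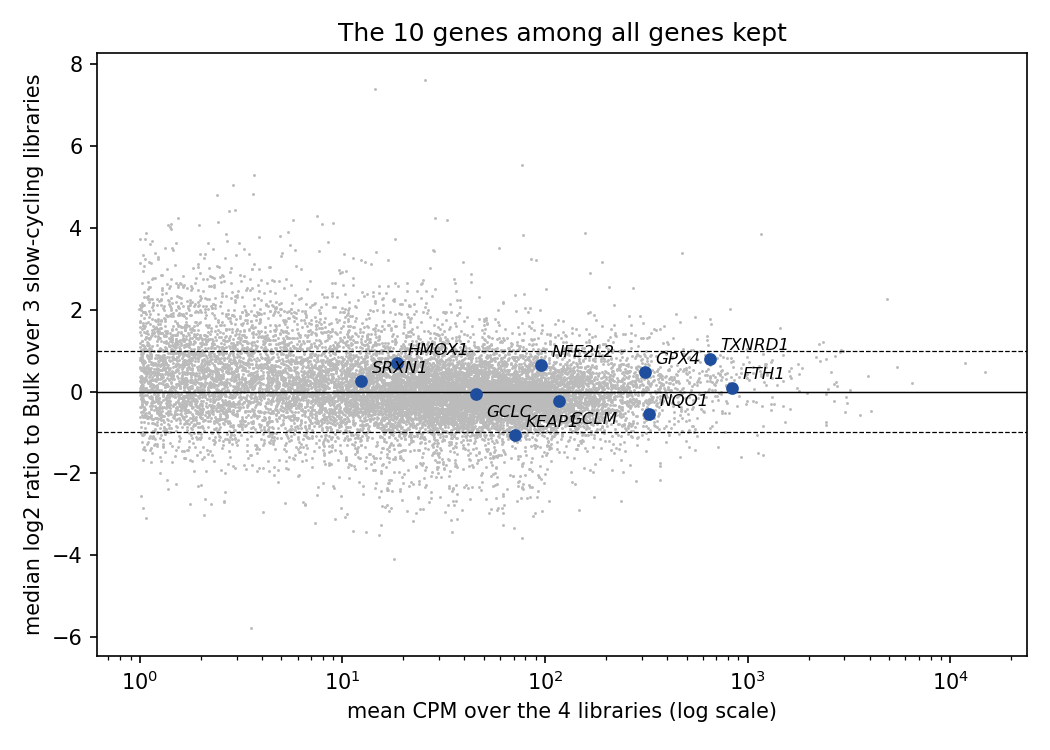
Median log2 ratio to Bulk over the 3 slow-cycling libraries against mean CPM over the 4 libraries (log axis), with the 14585 genes as grey points, the 10 genes in blue and dashed lines at 2-fold. KEAP1 lies just below the lower line, and the other 9 lie between the lines.

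Against all genes, KEAP1 was lower than 93.6%, 93.5% and 94.0% of them in Claret, eGFP and Violet. The share of genes with a higher ratio than TXNRD1 was 15.2%, 14.8% and 21.4%, than HMOX1 14.7%, 18.9% and 22.7%, and than NFE2L2 17.2%, 20.3% and 22.6%. By the distance of the 3 log2 ratios among 4387 protein-coding genes of at least 10 FPKM, those most like KEAP1 were CD320 (distance 0.0246), NUP153 (0.0267) and SLC4A2 (0.0322). In all, 30 genes lay within 0.1 of it.

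Between the 3 slow-cycling libraries none of the 10 genes differed by 1.5-fold, beside 1.77%, 1.95% and 2.36% of all genes in Claret against eGFP, Claret against Violet and eGFP against Violet. With no fold threshold, 2, 4 and 2 of the 10 passed, beside 12.6%, 17.4% and 17.2%. TXNRD1 gave the widest of these, lower in Violet than in eGFP by a log2 difference of 0.24. The median spread of a member over the 3 libraries was 0.11 on the log2 scale, and 0.20 over all genes. These 2 spreads are not matched for depth. The lowest member, SRXN1, had 10.9 to 13.3 CPM, while all genes reach down to a mean of 1 CPM, where counting error is wider.

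The surrounding pathway was read from 10 lists of 167 genes, of which 153 were kept. Of these, 20 (13.1%), 19 (12.4%) and 16 (10.5%) were called higher at 2-fold in Claret, eGFP and Violet, and 8 (5.23%), 11 (7.19%) and 9 (5.88%) lower, shares near those of all genes. Their medians were -0.03, -0.05 and -0.04. In all 3 libraries 14 (9.15%) were called higher and 6 (3.92%) lower, beside 8.49% and 4.93% of all genes. None of the 153 was called at 1.5- or 2-fold between slow-cycling libraries. With an assumed coefficient of variation of 0.2 between cultures, edgeR's exact test lost the calls named below of SEPHS1 in all 3 libraries, PGAM5 in eGFP and Violet, PRDX1 in Claret and eGFP, SELENOM in Claret and Violet, AKR1C1 in Violet, MAFF in Claret and AIFM2 in eGFP. The filter at 10 CPM also took PRDX1 in Claret and eGFP, SEPHS1 in Claret, and PGAM5 and AIFM2 in eGFP below 2-fold.

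**Figure D4:**
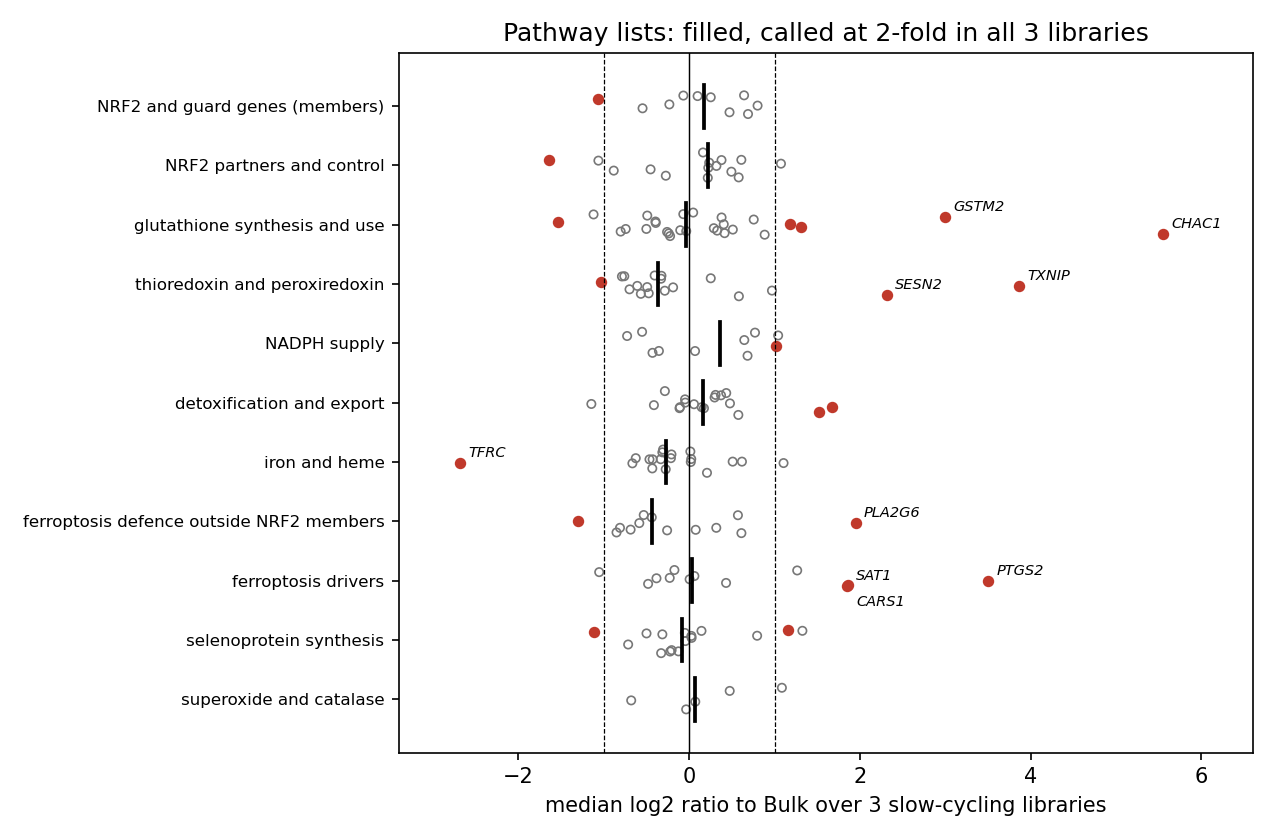
Median log2 ratio to Bulk over the 3 slow-cycling libraries for every kept gene of the members and the 10 pathway lists; bars are list medians, dashed lines 2-fold, and filled points genes called at 2-fold in all 3. CHAC1 and TXNIP lie far above the rest and TFRC far below, while all list medians stay inside the 2-fold lines.

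Partners and regulators of NRF2 (15 of 15 kept) had medians of 0.22, 0.25 and 0.22, with 1, 1 and 0 called higher and 1, 2 and 2 lower. BACH1, a repressor that competes at the same elements, had 589, 950, 836 and 1004 reads in Bulk, Claret, eGFP and Violet, with log2 ratios of 0.58, 0.49 and 0.77. MAFG, a small MAF partner, stood at 0.22, 0.36 and 0.18, and SQSTM1, an autophagy receptor that binds KEAP1, at 0.34, 0.38 and 0.38. DPP3, a peptidase that also binds KEAP1, was called lower in all 3 (1564, 554, 485 and 499 reads, -1.60, -1.70 and -1.64). Chosen after their values were seen, CUL3 (-0.44, -0.45 and -0.52) and RBX1 (-0.88, -0.83 and -0.97), the other parts of the ligase that KEAP1 serves, were below Bulk beside KEAP1. Neither was called at 2-fold, and CUL3 stayed within 1.5-fold of Bulk. MAFF, chosen likewise, was called higher in Claret and eGFP (1.08, 1.17 and, in Violet, 0.91), and PGAM5, a KEAP1-bound phosphatase, lower in eGFP and Violet (-0.95, -1.06 and -1.14).

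Around GCLC and GCLM, the glutathione list (27 of 29 kept) had 4 genes called higher in each library and 2, 2 and 1 lower, with medians of -0.02, -0.03 and -0.04. The cystine importer stood out: SLC7A11 had 2377, 6357, 5592 and 6189 reads (log2 ratios 1.31, 1.22 and 1.38), and its chaperone SLC3A2 2977, 8309, 6733 and 6758 (1.37, 1.16 and 1.18). CHAC1, which degrades glutathione, rose from 33 reads to 1810, 1652 and 1488 (5.59, 5.55 and 5.41), while its relative CHAC2 fell (-1.56, -1.53 and -1.54). So the import genes and CHAC1 were called higher and CHAC2 lower, while both subunits of glutamate-cysteine ligase stayed below 1.5-fold. GSR, which regenerates glutathione, stood at 0.05, 0.12 and 0.02. GSTM2 rose from 8 reads to 84, 78 and 62, but reads of its near-identical paralogs may be split between them.

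Around TXNRD1 and SRXN1 the thioredoxin and peroxiredoxin list (18 of 18 kept) had medians of -0.30, -0.37 and -0.40, with 5 genes above 0 and 13 below in each library. TXN, the substrate of TXNRD1, had 4846, 3327, 3011 and 2852 reads (-0.65, -0.70 and -0.76), in the opposite direction to its reductase. TXNIP, which binds and inhibits thioredoxin, rose from 1657 reads to 26000, 27931 and 19542, or 14.5-, 16.7- and 11.8-fold. PRDX1, a peroxiredoxin that sulfiredoxin repairs, fell (-1.04, -1.001 and -1.21), and SESN2, a stress-induced sestrin, rose (2.33, 2.32 and 2.13). The NADPH list (10 of 10 kept), which supplies electrons to both systems, had medians of 0.37, 0.42 and 0.32, with 2, 2 and 1 genes called higher and 0 lower.

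Around NQO1 the detoxification list (18 of 22 kept) had 2 genes called higher in each library and 1, 0 and 1 lower. ABCC3, an efflux pump for glutathione and glucuronide conjugates, had 1781, 5959, 5747 and 6085 reads (1.63, 1.68 and 1.77), and AKR1C1 22, 72, 75 and 55 (1.52, 1.67 and 1.25), where paralogs leave the AKR1C1 counts uncertain. Around HMOX1 and FTH1 the iron and heme list (19 of 20 kept) had medians of -0.17, -0.21 and -0.27. TFRC, the transferrin receptor that brings iron into cells, fell from 10281 reads to 1767, 1609 and 1490, that is 6.26-, 6.44- and 6.89-fold lower. FTL, the ferritin light chain, stood at -0.31, -0.17 and -0.38, and NCOA4, the ferritin autophagy receptor, at -0.07, -0.21 and -0.26. The import receptor was thus far below Bulk while both ferritin chains were within 1.5-fold of it.

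Beside GPX4, the other ferroptosis defences (13 of 13 kept) had medians of -0.42, -0.47 and -0.44. AIFM2 (FSP1), which reduces coenzyme Q at membranes independently of GPX4, had 1249, 759, 623 and 691 reads (-0.82, -1.01 and -0.85) and was called in eGFP. FANCD2 fell in all 3 (-1.30, -1.40 and -1.28), and PLA2G6, a phospholipase, rose (1.85, 2.04 and 1.95). The PLA2G6 gene overlaps MAFF, which was also above Bulk, and how shared reads were counted is not given in the sources used here. FANCD2 is best known as a DNA repair gene. Among genes that promote or mark ferroptosis (12 of 19 kept), 4, 4 and 3 were called higher and 0, 1 and 1 lower, with medians of 0.03, 0.07 and 0.01. ACSL4, which loads polyunsaturated fatty acids into phospholipids, stood at 0.06, 0.10 and 0.05, whereas PTGS2 rose from 105 reads to 1153, 1381 and 1207, and SAT1 (1.71, 1.85 and 1.88) and CARS1 (1.91, 1.87 and 1.78) rose in each.

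GPX4 and TXNRD1 both need selenocysteine, and the selenoprotein list (16 of 16 kept) had medians of -0.04, -0.18 and -0.12 with 2, 1 and 2 genes called higher and 1 lower in each. SEPHS1, a relative of the selenophosphate synthetase, fell (-1.05, -1.14 and -1.11), and SELENOM, a selenoprotein of the endoplasmic reticulum, rose (1.15, 1.43 and 1.10). Superoxide and peroxide enzymes (5 of 5 kept) had 0, 1 and 1 called higher and none lower, with medians of 0.05, 0.07 and 0.14.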

How the data were processed

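RNA from 4 sorted samples was sequenced. The authors deposited whole-number read counts per gene and FPKM values; alignment used HISAT2 2.0.5 and counting featureCounts 1.5.0-p3, per the submitters' processing notes, and strand and multi-mapping settings are not given in the sources used here. FPKM times gene length over the count was constant within each library, so the deposited FPKM came from the same counts. Coordinates of all 58735 genes match GENCODE 29 (GRCh38).

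Groups follow the sample titles. The members and lists were chosen with earlier results of these data known. The genes named are the 10 members, well-known neighbours (SLC7A11, FTL, TXN, GSR, BACH1, MAFG, SQSTM1, AIFM2, ACSL4, TFRC and NCOA4; a further gene is not reported here), list genes called at 2-fold in all 3 slow-cycling libraries (at most 20), MKI67 and TOP2A, and the 3 genes nearest to KEAP1; others are said to be chosen after their values were seen.

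Genes with a mean of at least 1 CPM were kept, scaling used TMM (edgeR 4.0.16, R 4.3.3), and log2 ratios used a prior count of 2. With 1 library in each group no residual degrees of freedom remain for edgeR's quasi-likelihood fit, so reads of 2 libraries were compared by an exact two-sided binomial test in scipy 1.17.1 (Python 3.11.15), adjusted by Benjamini-Hochberg over the 14585 genes. Intervals are 95% Clopper-Pearson intervals, and they and the floor of 3 reads cover counting error only. The script was tested on simulated data. Alternatives were DESeq2 1.42.0 size factors, summed counts without TMM, a prior count of 0.5, no filter and a filter at 10 CPM, log2(FPKM + 1), GC correction, FTH1 with its copies, an assumed coefficient of variation of 0.2, and groups from the treatment field. The ratios and p-values printed for KEAP1 at 10 CPM and with the assumed variation were added after seeing the data. Promoter sequences are from RefSeq, GRCh38.p14.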

Additional observations from a re-analysis of the deposited data

Results flagged for a closer look

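NFE2L2, TXNRD1, GPX4 and FTH1 differed in reads among the Claret, eGFP and Violet libraries (exact binomial test, Benjamini-Hochberg adjustment), though none by 1.5-fold, and no replicate supports these differences. TXNRD1 was lower in Violet, with log2 ratios of 0.24 for eGFP against Violet (adjusted p = 6.03e-34) and 0.19 for Claret against Violet (adjusted p = 3.42e-21), and of -0.052 for Claret against eGFP (adjusted p = 0.0402). GPX4 gave 0.12 for eGFP against Violet (adjusted p = 0.00065) and 0.080 for Claret against Violet (adjusted p = 0.0299). FTH1 gave -0.11 for Claret against eGFP (adjusted p = 9.84e-08) and -0.067 for Claret against Violet (adjusted p = 0.00189). NFE2L2 gave 0.14 for Claret against Violet (adjusted p = 0.0308). Up to 17.4% of all genes passed the same test in these comparisons.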

How the results depend on the processing

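No paired analysis was possible because each group has 1 library, and for the same reason no replicate could be left out. Of 309 member ratios recomputed, 300 kept direction and side of the threshold, 5 (KEAP1, whose ratios at 10 CPM and with assumed variation were added after seeing the data) no longer passed and 4 reversed, all between slow-cycling libraries: GCLC in Claret against Violet, 0.0047 with DESeq2 size factors and 0.019 as log2(FPKM + 1), GCLM there, 0.0025 with GC correction, and KEAP1 in eGFP against Violet, 0.0032 as log2(FPKM + 1). With groups from the treatment field the member median in Claret was -0.14, 1 member was higher at 2-fold in Claret and 0 lower in Claret, eGFP or Violet. At 1.5-fold 1, 0 and 0 were then higher and 0 lower in eGFP and Violet, and of the pathway genes 9, 0 and 0 were higher and 16, 0 and 0 lower. With the filter at 10 CPM, 0 members were lower at 2-fold in Claret and Violet, 3 were higher at 1.5-fold in Violet, and 4 pathway genes were lower in Claret and 6 in eGFP. With an assumed coefficient of variation of 0.2, edgeR's exact test called 0 members at 2-fold or 1.5-fold in any comparison with Bulk, and 4 pathway genes lower in Claret and in eGFP. As log2(FPKM + 1), 1 member was higher at 1.5-fold in eGFP, 0 in Violet, and 2 were lower in Violet. With summed counts 3 were higher at 1.5-fold in Violet. The cause of these changes was not tested. With reads of 1 library a group, depth limits the members with fewest reads, SRXN1 and HMOX1, most.

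Over all genes, 1640 were higher and 980 lower at 2-fold in Claret, 1731 and 1115 in eGFP, and 1696 and 1008 in Violet. With the assumed coefficient of variation these were 914 and 583, 1043 and 687, and 961 and 620, and with the filter at 10 CPM 721 and 556, 781 and 643, and 724 and 597.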

Other observations

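Peroxiredoxins, a family of enzymes that reduce peroxides, were not of 1 direction (these genes were chosen after their values were seen). PRDX5 had 1971 reads in Bulk against 4329, 3897 and 3583 in Claret, eGFP and Violet, with log2 ratios of 1.03, 0.97 and 0.86. PRDX2 stood at -0.49, -0.43 and -0.49, PRDX3, the mitochondrial form, at -0.64, -0.78 and -0.76, PRDX4 at -0.31, -0.32 and -0.39, and PRDX6 at -0.25, -0.29 and -0.36. PRDX5 was thus the 1 peroxiredoxin of 6 above Bulk.

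The biliverdin reductase genes BLVRB and BLVRA, chosen likewise, were both above Bulk. BLVRB had 577, 1426, 1255 and 1127 reads (1.19, 1.11 and 0.96), and BLVRA 897, 1678, 1324 and 1377 (0.79, 0.55 and 0.62). HMOX2, the constitutive heme oxygenase, stood at 0.18, 0.02 and -0.03.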
